A study of Mus musculus with 17 samples.

Results

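The sites described here lie in CpG-rich DNA between genes and were unmethylated in the blood of young mice. DNA methylation was measured by DREAM, a sequencing assay that reads the share of methylated DNA at CCCGGG sites, in whole blood. There were 17 mice, all of the inbred strain C57BL/6. Sites were chosen by their AL-young values. Each lay on an autosome, had 100 reads or more in 13 or more of the 17 mice, and averaged below 5% methylation over the AL-young mice. In the 500 bp around it GC had to make up 50% or more, and the CpG count, divided by that expected from its base composition, had to reach 0.6. It also had to lie outside every gene of the GENCODE M1 annotation and outside the stretch from 1000 bp before to 500 bp after any transcription start. In all, 427 of the 15742 autosomal sites with enough reads met the rule, out of 173449 CCCGGG sites measured.

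The AL-young group held 5 mice of 4 months fed ad libitum (AL), 2 females and 3 males. The AL-old group held 7 mice of 29 to 33 months on the same feeding, 5 females and 2 males. The CR-old group held 5 mice of 32 to 38 months under caloric restriction (CR), 2 females and 3 males. All animals were of the same strain with no genetic change named in the labels, and the number behind a group name below is the number of the mouse. Whole blood holds many cell types, so a change within cells cannot be told apart from a change in their proportions. Of 43 listed marker genes of blood lineages and other tissues only 5 held a site with enough reads, too few to check the tissue label.

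CpG dinucleotides are sparse in most of the mouse genome because methylated cytosine is easily lost by mutation, and they persist in clusters called CpG islands, most of which stay unmethylated. Islands at transcription starts are the best known. Islands that lie between genes, also called orphan islands, can be starts of unannotated transcripts, enhancers or targets of the Polycomb repressors. Gain of methylation at islands is a known feature of ageing blood.

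A site is named here by its position in the mm9 assembly (NCBIM37) and by the protein-coding gene with the nearest transcription start, which states a distance and not a regulatory link. The sequences below are centred on the sites with the largest differences between groups, followed by a site of high read depth near Espn that stayed near 0%, for contrast. They are in mm9, plus strand, written 5′ to 3′, and capitals mark the CCCGGG that the assay cuts.
Upstream of Fat1, chr8:46023573-46023693: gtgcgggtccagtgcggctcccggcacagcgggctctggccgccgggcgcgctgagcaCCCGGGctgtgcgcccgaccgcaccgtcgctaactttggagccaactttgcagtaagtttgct
Upstream of Sp8, chr12:120075279-120075399: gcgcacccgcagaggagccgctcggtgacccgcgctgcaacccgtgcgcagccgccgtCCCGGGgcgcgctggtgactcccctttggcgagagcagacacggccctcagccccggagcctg
Upstream of Epb4.1l3, chr17:69424949-69425069: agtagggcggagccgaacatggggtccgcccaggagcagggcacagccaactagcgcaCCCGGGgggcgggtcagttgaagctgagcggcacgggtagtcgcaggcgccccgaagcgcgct
Upstream of Kcnh8, chr17:52741750-52741870: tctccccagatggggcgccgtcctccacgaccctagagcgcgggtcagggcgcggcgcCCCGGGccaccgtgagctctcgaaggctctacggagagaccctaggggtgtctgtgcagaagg
Upstream of Gm6158, chr14:24823741-24823861: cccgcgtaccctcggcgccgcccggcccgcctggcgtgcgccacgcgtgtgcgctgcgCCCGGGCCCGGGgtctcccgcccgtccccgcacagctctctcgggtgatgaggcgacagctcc
Upstream of Fgf12, chr16:28564860-28564980: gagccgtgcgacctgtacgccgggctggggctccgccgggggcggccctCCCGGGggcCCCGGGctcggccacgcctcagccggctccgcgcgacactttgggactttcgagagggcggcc
Upstream of Nr2f2, chr7:77514584-77514704: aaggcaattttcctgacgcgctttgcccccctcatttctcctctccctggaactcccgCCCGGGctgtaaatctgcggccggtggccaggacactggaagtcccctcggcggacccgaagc
Upstream of Espn, chr4:151528062-151528182: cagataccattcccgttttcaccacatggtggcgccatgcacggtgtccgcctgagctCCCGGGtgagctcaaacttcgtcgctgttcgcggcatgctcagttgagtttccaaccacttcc

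These 8 windows had a GC content from 57.9 to 80.2% and held 9 to 20 CpG dinucleotides. In the windows near Gm6158 and Fgf12 a second CCCGGG stood beside the central one. The Espn site had an AL-young mean of 0.0266%, an AL-old mean of 0.00560% and a CR-old mean of 0.0760%, from 809 to 7788 reads per mouse, whereas the other 7 sites averaged 22.3 to 30.6% in AL-old mice.

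The 427 sites were spread over all 19 autosomes, from 8 on chromosome 16 to 39 on chromosome 4. Their windows had a median GC content of 66% and a median CpG ratio of 0.773. CpG islands were called on the assembly as joined windows of 200 bp that met the same GC and CpG ratio limits as the choice. That 425 of the sites lay inside such an island was therefore nearly fixed by the choice. The median island length was 998 bp. The distance to the nearest transcription start of any gene ran from 567 to 352854 bp, with a median of 11928 bp. Because DREAM sites cluster in CpG-rich DNA, the sites were not independent of each other. Neighbours within 10 kb formed 222 runs, of which 82 held a single site.

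The letters GGGCGG, the core of the Sp1 box, were found on either strand within 150 bp of the site at 73.8% of the 427 sites and at 46.6% of all 15742 sites. Among CpG-rich sites unmethylated in young mice they were at 72.3% of those in promoters and 56.5% of those inside genes. In DNA this rich in G and C these letters also arise where they overlap the CCCGGG itself. The E-box letters CAGCTG were found at 23.2% of the 427 sites and 17.9% of all sites, with 14.9% in the promoter class and 16.2% inside genes. The letters CCAAT were at 14.5% and 21.99%, with 17.03 and 15.4% in those classes. The cAMP response element TGACGTCA was at 0 of the 427 sites and at 0.686% of all sites, 1.23% of the promoter class and 0.237% of the class inside genes. Such a match is a description of the letters and not a binding site.

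Methylation over the 427 sites was low and alike in young mice and differed widely among old AL mice. The raw value of a mouse is the percentage of methylated reads, averaged over the sites with at least 100 reads. In AL-young mice 15, 16, 28, 29 and 30 it was 0.712, 0.692, 0.584, 0.588 and 0.525%. The AL-old mice had a lowest value of 0.598% in AL-old 8, a median of 1.86% and a highest value of 7.53% in AL-old 27. CR-old mice 2, 6, 19, 20 and 22 had 1.05, 0.535, 0.773, 0.801 and 0.844%. All AL-old mice except AL-old 8 lay above every AL-young mouse, and 5 of 7 lay above every CR-old mouse, while CR-old 6 lay within the AL-young range.

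The mean of the AL-young group was 0.620 ± 0.0787% (SD, n = 5), that of the AL-old group 2.50 ± 2.35% (SD, n = 7) and that of the CR-old group 0.8001 ± 0.183% (SD, n = 5). Since the AL-young values chose the sites, the differences from that group are descriptions. The AL-old mean exceeded the AL-young mean by 1.88 points. The CR-old mean was below the AL-old mean by 1.70 points, a difference smaller than the SD among AL-old mice. Without AL-old 27 the AL-old mean was 1.66 ± 0.858% (SD, n = 6), the difference from AL-young mice was 1.04 points and that from CR-old mice was -0.859 points.

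Some sites in blood marker genes also differed between the groups in raw percent. In Cd3g, a chain of the T cell receptor complex and the 1 gene of 9 in the T cell list with a site, methylation averaged 73.8% in AL-young, 44.8% in AL-old and 68.2% in CR-old mice. AL-old mice ranged there from 14 to 80.03%, CR-old mice from 40.2 to 80.4% and AL-young mice from 72.2 to 76.2%. Among 8 myeloid genes 2 had sites. Itgam, the integrin of myeloid cells, averaged 90.9, 77.2 and 85.8% in the same order and Csf1r, the receptor of macrophage growth, 41.5, 35.1 and 17.2%. The mean over the myeloid list was 54.6 to 67.6% in AL-young, 32.8 to 63.3% in AL-old and 44.3 to 56.8% in CR-old mice. The erythroid factor gene Klf1 averaged at most 0.351% in every mouse, and Ins2, a gene of the pancreas, averaged 84.6, 84.4 and 84.4%. The leukocyte and B cell lists had 0 sites. Raw percent read low in the AL-old females and CR-old 6, whose correction factors were high, as described below. Over all 15742 sites the AL-old mean was 23.0% raw and 25.2% adjusted. The part of this correction in the marker values was not tested. The part of cell proportions in the values of the 427 sites was not tested either.

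**Figure D1:**
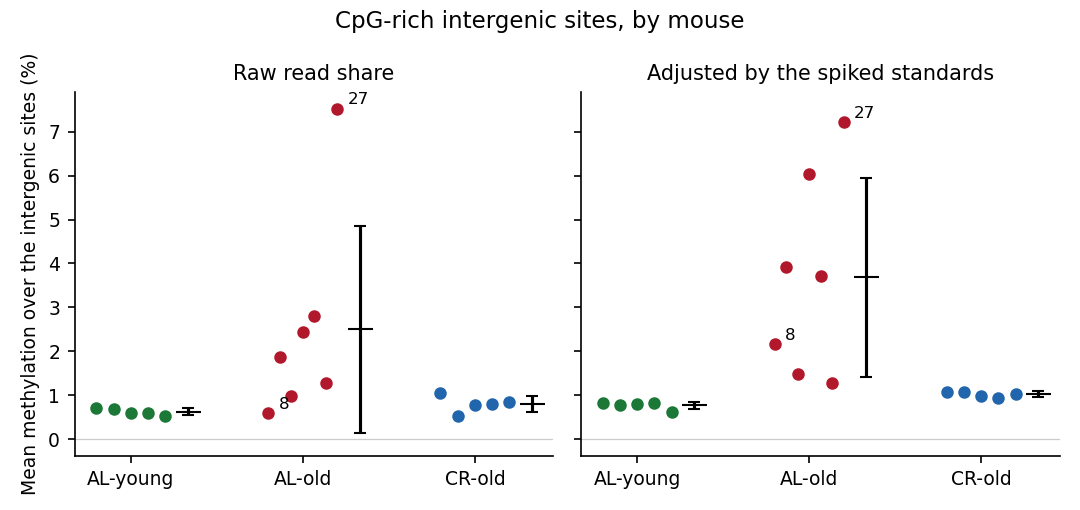
Mean methylation in percent over the 427 sites (y axis) for each mouse (points) in the AL-young, AL-old and CR-old groups, as the raw read share on the left and after adjustment by the spiked standards on the right. Black bars give the group mean ± SD; AL-old mice spread from 0.598 to 7.53% raw, whereas AL-young and CR-old mice stayed between 0.525 and 1.05%.

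The spiked DNA standards read lower in part of the mice, and the deposited adjusted percent corrects for this by a factor on the odds of methylation. The factor was between 1.40 and 3.96 in the 5 AL-old females and CR-old 6 and between 0.872 and 1.13 in the other 11 mice. In adjusted percent the means over the 427 sites were 0.768 ± 0.0840% for AL-young (n = 5), 3.69 ± 2.27% for AL-old (n = 7) and 1.02 ± 0.0671% for CR-old (n = 5). On this scale all 7 AL-old mice, with AL-old 25 lowest at 1.28% and AL-old 27 highest at 7.21%, lay above every AL-young and every CR-old mouse. AL-old 8, which overlapped the young mice in raw percent, had 2.17%. The unmethylated standard read between 0 and 0.296% methylated in all mice, which gives the background of the assay.

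Within the mice of low correction the raw means were 4.41% in the 2 AL-old and 0.866% in the 4 CR-old mice, and the 2 AL-old values were 1.29 and 7.53%. Among the mice of high correction they were 1.73% in the 5 AL-old females and 0.535% in CR-old 6. Females had 0.702% in AL-young, 1.73% in AL-old and 0.791% in CR-old, and males 0.566, 4.41 and 0.806%. The AL-old mean was above the CR-old mean in each of these subsets, but the part of correction and sex in the values was not tested. High correction was found in the 5 AL-old females, in CR-old 6 and in no AL-young mouse, so it overlaps with group. No AL-old female had a low factor, so sex and correction cannot be told apart among AL-old mice. When the sites were chosen again with the 3 AL-young males alone (428 sites), the 2 AL-young females that took no part in the choice had 0.723 and 0.706%, and the AL-old mean exceeded theirs by 1.82 points, or by 0.961 points without AL-old 27.

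A minority of sites held most of the difference between AL-old and AL-young mice. The median over the 427 sites was near 0.3% in each group, with 0.270 ± 0.0442% for AL-young (n = 5), 0.309 ± 0.325% for AL-old (n = 7) and 0.289 ± 0.109% for CR-old (n = 5). The 43 sites with the largest difference between AL-old and AL-young means held 76.0% of the summed difference. The sites were ranked by the values that were summed, so a large share is partly built in. The sum also includes negative differences, since the AL-old mean was the higher at 247 of the 427 sites. An AL-old mean of at least 5% was found at 55 sites, of at least 10% at 31 sites and of at least 20% at 12 sites. In CR-old mice 6 sites reached 5% and 0 reached 10%. Without AL-old 27 the first 2 of these AL-old counts were 38 and 19.

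Counted by mouse, 72 of 377 measured sites reached 10% in AL-old 27, 33 of 426 in AL-old 14, 24 of 427 in AL-old 9 and 24 of 419 in AL-old 13. The counts were 5 of 403 in AL-old 8, 5 of 427 in AL-old 10 and 4 of 392 in AL-old 25. In AL-young mice 0 sites reached 10%, and CR-old 2 and CR-old 20 had 1 each. AL-old mice thus differed from each other, although AL-old 27 was not alone in the gain. Among the 50 sites with an AL-old mean of at least 5% and values in all 7 AL-old mice, the highest AL-old mouse was AL-old 27 at 34, AL-old 13 at 8, AL-old 14 at 7 and AL-old 9 at 1. The lowest was AL-old 8 at 30. AL-old 27 also had the lowest depth of the series, 6.43 M reads, and a median of 288 reads at these sites, against 2475 in AL-young 30.

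Single sites were tested in the comparison of CR-old with AL-old mice, which the choice of sites did not use. edgeR was fitted to methylated and unmethylated reads over all 15742 sites, and a site was called at an adjusted p-value under 0.05 with raw means at least 2 points apart. CR-old mice were lower at 18 of the 427 sites (4.22%), where 1.77% of all sites were called lower. They were higher at 0 of them, where 1.65% of all sites were called higher (edgeR, 23 at an unadjusted p under 0.05, and 0 called by limma). Means 2 points apart required a CR-old mean of 2% or more for a higher call. Only 56 of the 427 sites had one, so a higher call was possible at those alone. Among CpG-rich sites unmethylated in young mice that lay in promoters 1.82% were lower and 0.0292% higher, and among those inside genes 1.97% were lower and 0.0789% higher, but no test of the difference between these classes was made. The 18 sites lay in 14 runs. Their means were 2.70 to 30.6% in AL-old, 0.112 to 5.55% in CR-old and 0.0380 to 4.10% in AL-young mice, with edgeR adjusted p from 0.00575 to 0.0429. The AL-old mean of 2.70%, upstream of Nhsl1, came from only 3 AL-old mice with enough reads. At 4 of the 18 every CR-old mouse lay below every AL-old mouse in raw percent.

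The count of sites lower in CR-old mice depended on the mice in the fit and on the treatment of the correction factor. It was 44 with the factor as an offset and 6 with a covariate for high against low correction. It was 9 without AL-old 14, 10 without AL-old 9, AL-old 27 or CR-old 2, 8 without CR-old 19, 5 without CR-old 20, 4 without CR-old 22 and 34 without AL-old 25.

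**Figure D2:**
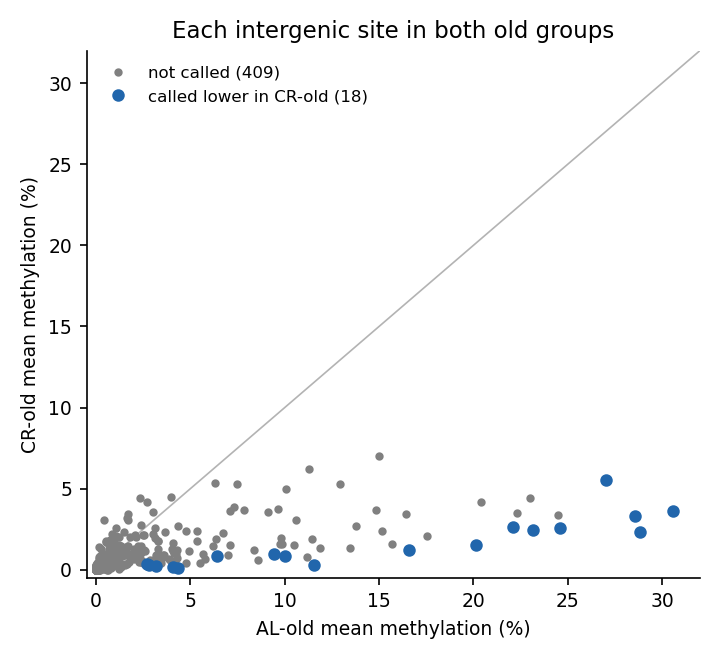
Mean raw methylation in percent of each of the 427 sites in AL-old (x axis) and CR-old mice (y axis), with the 18 sites called lower in CR-old mice in blue and the line of equal values in grey. CR-old means stayed below 10% at every site, also where AL-old means reached 30.6%.

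For age, with the AL-young values used in the choice, the same fit gave 43 of 427 sites (10.1%) where AL-old exceeded AL-young mice and 0 where they fell below, as a description. Across all 15742 sites these shares were 3.9% and 5.86%. Among CpG-rich sites unmethylated in young mice they were 5.31 and 0.0730% in promoters and 6.78 and 0.0789% inside genes, and no test between these classes was made. A call required means 2 points apart and 32 of the 427 sites had an AL-young mean of 2% or more, so a lower call was possible at those 32 alone and the count of 0 was nearly fixed by the choice. The 43 sites lay in 26 runs, and at 19 of them every AL-old mouse lay above every AL-young mouse. Lower methylation had an unadjusted p under 0.05 by edgeR at 20 sites, and limma called 0. Between CR-old and AL-young mice edgeR called 0 sites in either direction, with 15 higher and 6 lower at an unadjusted p under 0.05 and a smallest adjusted p of 0.306. The share called among all sites was 0.0% in both directions, and limma called 0 of the 427. A fit of these 2 groups alone called 4 higher and 1 lower. The AL-old mice enter both the age and the diet comparison, so these counts do not stand independently of each other.

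The largest gain was at chr8:46023631-46023636, 11.9 kb upstream of Fat1, which encodes an atypical cadherin. Raw methylation in AL-young mice 15, 16, 28, 29 and 30 was 3.04, 1.98, 0.452, 2.03 and 1.18%. AL-old mice had a lowest value of 4.21% (AL-old 25), a median of 14.5% and a highest value of 78.9% (AL-old 27), and AL-old 13 had 77.2%. CR-old mice 2, 6, 19, 20 and 22 had 5.17, 4.79, 1.85, 2.82 and 3.36%. Every AL-old mouse was above every AL-young mouse, but the 2 lowest AL-old mice overlapped the CR-old mice. The means were 1.74 ± 0.974, 30.6 ± 33.2 and 3.597 ± 1.38% (SD, n = 5, 7 and 5), and each mouse had 365 to 4833 reads. For diet the log2 odds ratio, CR-old over AL-old, was -2.81 (SE 0.834, edgeR adjusted p = 0.0398). Over 20 alternatives its adjusted p ran from 0.00384 to 0.119, and it was 0.05 or more without AL-old 9, AL-old 13, AL-old 14, AL-old 27, CR-old 2, CR-old 19, CR-old 20 or CR-old 22.

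The site at chr12:120075337-120075342 lay 9.5 kb upstream of Sp8, a zinc finger transcription factor of limb and forebrain development. AL-young mice 15, 16, 28, 29 and 30 had 1.36, 1.92, 1.01, 1.65 and 0.794%, and AL-old mice had a lowest value of 3.32% (AL-old 25), a median of 19.3% and a highest value of 66.8% (AL-old 14). CR-old mice 2, 6, 19, 20 and 22 had 3.88, 2.64, 1.08, 1.74 and 2.35%. Only the lowest AL-old value fell within the CR-old range, and no AL-old value fell within the AL-young range. The same ratio was -3.56 on the log2 scale, with an SE of 0.804 and an edgeR adjusted p of 0.00575, the lowest adjusted p among the 427 sites. Leaving out any single mouse kept the adjusted p between 0.000291 and 0.0277. With the correction covariate it was 0.0509 and in the low-correction mice alone 0.0687, within a range of 0.000291 to 0.0687 over 19 alternatives.

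Another pair of sites lay on chromosome 17. At chr17:69425007-69425012, 81.1 kb upstream of Epb4.1l3, a protein of the membrane skeleton, AL-old mice had a lowest value of 2.69% (AL-old 8), a median of 17.3% and a highest value of 85.9% (AL-old 14). AL-young mice had 2.38, 2.72, 1.58, 2.67 and 1.86% and CR-old mice 4.68, 2.22, 3.77, 2.44 and 3.51%, each in the order of mice used above. AL-old 8 lay inside both other ranges, and the other AL-old mice lay above them. The edgeR adjusted p of CR-old against AL-old was 0.0429. It ran from 0.00222 to 0.120 over 19 alternatives and stayed under 0.05 in 3 of the 12 fits that left out a mouse, those without AL-old 8, AL-old 10 or AL-old 25.

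At chr17:52741808-52741813, 123.3 kb upstream of the voltage-gated potassium channel gene Kcnh8, AL-old mice had a lowest value of 1.67% (AL-old 25), a median of 19.3% and a highest value of 67.5% (AL-old 13). AL-young mice had 1.65, 0.518, 0.220, 1.01 and 0.605% and CR-old mice 2.84, 3.34, 4.30, 1.40 and 0.988%. AL-old 8 and AL-old 25 lay within the CR-old range, and the other 5 lay above it. The edgeR adjusted p was 0.0226, with a range of 0.00139 to 0.181 over 19 alternatives, and it was 0.05 or more without AL-old 13, AL-old 14, CR-old 20 or CR-old 22. The highest AL-old mouse was thus AL-old 27 near Fat1, AL-old 14 near Sp8 and Epb4.1l3 and AL-old 13 near Kcnh8.

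At chr16:28564918-28564923, 119.6 kb upstream of Fgf12, a fibroblast growth factor homologue that binds sodium channels, AL-old mice had a lowest value of 1.78% (AL-old 8), a median of 10.9% and a highest value of 71.6% (AL-old 27). AL-young mice had 3.18, 4.46, 1.47, 2.70 and 1.69% and CR-old mice 3.15, 1.87, 1.77, 2.48 and 3.09%. CR-old and AL-young mice overlapped, and 6 of 7 AL-old mice lay above both. The edgeR adjusted p of CR-old against AL-old was 0.0390, with 0.0356 under the correction covariate and 0.0463 in low-correction mice alone. The range over 19 alternatives was 0.00143 to 0.108, and the call was lost without AL-old 14, AL-old 27 or any 1 of the 5 CR-old mice.

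The site at chr14:24823799-24823804, 65.5 kb upstream of the predicted gene Gm6158, had 3 AL-young mice at 0%, with 1.03% in AL-young 15 and 0.232% in AL-young 30. For AL-young 16, with 135 reads, a count of 0 allows a share of up to 2.22%. AL-old mice had a lowest value of 2.18% (AL-old 8), a median of 11.98% and a highest value of 88.6% (AL-old 27, 95% Wilson interval 82.8 to 92.5%, 166 reads), and CR-old mice had 1.48, 4.57, 2.24, 3.18 and 6.14%. In raw percent every old mouse of either diet thus exceeded every young mouse here. For AL-young 29, with 109 reads, a count of 0 allows up to 2.75%, which is above the values of AL-old 8, CR-old 2 and CR-old 19. The separation of old from young mice was therefore within counting error for these mice. CR-old mice did not pass the test against AL-old mice (edgeR adjusted p = 0.114, 0.0108 to 0.257 over 19 alternatives). The AL-old mean of 22.3% fell to 11.3% without AL-old 27.

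At chr7:77514642-77514647, 3.0 kb upstream of Nr2f2, the gene of the nuclear receptor COUP-TFII, methylation was already 3.05 to 4.98% in AL-young mice. It ranged from 5.69 to 47.5% with a median of 31.5% in the 5 AL-old mice with 100 reads, and AL-old 8 and AL-old 27 had fewer reads and no value. The edgeR fit still used the reads of AL-old 8 and AL-old 27. CR-old mice had 8.42, 5.87, 2.73, 5.52 and 5.23%. Only AL-old 10 fell within the CR-old range. The edgeR adjusted p was 0.0288, with a range of 0.00202 to 0.105 over 18 alternatives, and it was 0.05 or more without AL-old 9, AL-old 13, AL-old 14, CR-old 19, CR-old 20 or CR-old 22. Two-sided exact permutation tests of the raw percent over all splits of the old mice with a value, 10 near Nr2f2 and 12 elsewhere, gave p = 0.00505 near Sp8 and p from 0.0126 to 0.0379 at the other 6 sites named above. These sites were picked for large differences, so the exact p-values describe them and do not add to the adjusted ones.

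**Figure D3:**
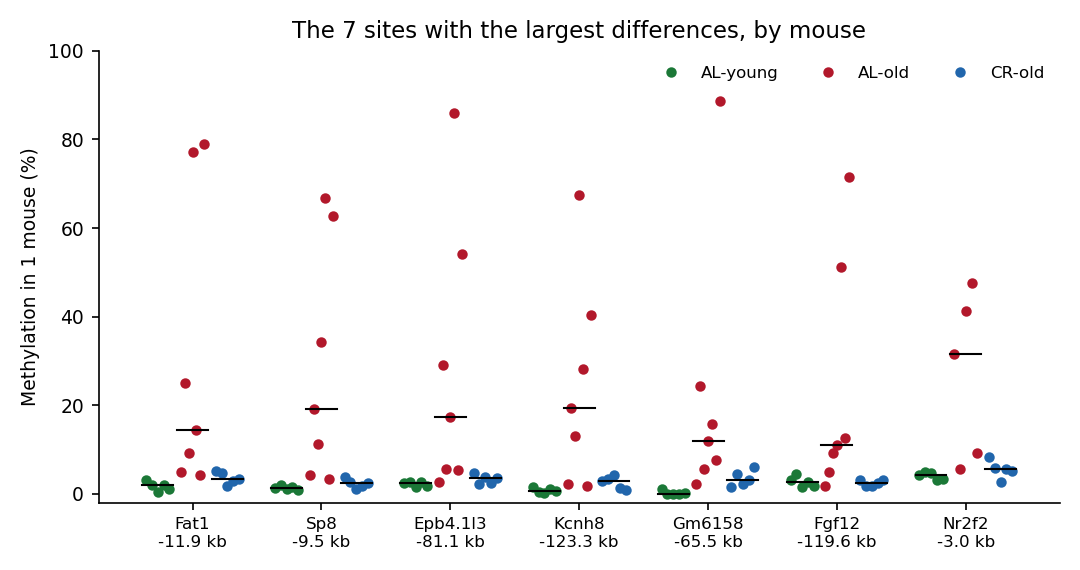
Raw methylation in percent (y axis) of each mouse (points) at the 7 sites, named by the nearest gene and the distance to its start, with AL-young in green, AL-old in red and CR-old in blue and the group median as a black line. CR-old mice stayed at or below 8.42% at each site, whereas AL-old mice spread from 1.67 to 88.6%.

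The other sites called lower in CR-old mice averaged 2.70 to 22.1% in AL-old mice, where the 2.70% came from 3 mice with enough reads. A pair near Gm9953, 118.8 and 117.8 kb downstream, averaged 11.6 and 20.1% in AL-old against 0.267 and 1.55% in CR-old mice. A site 86.1 kb upstream of Tbca, which encodes a tubulin folding cofactor, had 4.34 and 0.112%, and a site 54.7 kb downstream of the glucose transporter gene Slc2a10 had 2.79 and 0.299%. A pair upstream of Papss1, which makes the sulfate donor of the cell, had 3.20 and 9.40% in AL-old, 1.93 and 5.37% without AL-old 27, against 0.222 and 0.943% in CR-old mice. At the sites named in this paragraph so far the CR-old and AL-young means were both below 2%. At the site of 22.1%, 57.9 kb downstream of Cxxc5, they were 2.61 and 2.07%, and the AL-old mean was 16.0% without AL-old 27.

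Neighbouring sites often had similar levels, but sharp steps occurred. Over 205 pairs of neighbours in a run, with a median gap of 170 bp, Spearman's rho of their means was 0.795 in AL-old, 0.718 in CR-old and 0.626 in AL-young mice. The pairs share mice, libraries and base composition, so rho is a description. Among the 140 runs with at least 2 sites, 112 had no site with an AL-old mean of 5% or more, 9 had every site there and 19 were mixed.

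The largest run lay 63.1 to 64.4 kb upstream of Ppara, a nuclear receptor of fatty acid oxidation, and held 7 sites in an island of 2071 bp. The first 6, at 427 to 1317 bp from the start of the island, had AL-old means from 0 to 0.495%. The seventh, at 1693 bp and still 372 bp inside the island, averaged 17.5% in AL-old, 2.09% in CR-old and 0.265% in AL-young mice. AL-old values there ran from 2.83% to 58.3% in the 5 mice with enough reads, the highest in AL-old 27, without which the mean was 7.33%. The step from 0.495% to 17.5%, or to 7.33% without that mouse, lay within a single island.

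There were 6 runs of 5 sites each. In the one near Fat1, 4 of 5 sites were called higher with age, with AL-old means of 3.86, 9.87, 24.5, 30.6 and 11.4% along the DNA. Without AL-old 27 the first pair of these means was 1.71 and 4.24% and the others were 9.90% or more. Upstream of Nhsl1 AL-old means were 2.70, 16.6, 3.16, 10.0 and 3.30%, CR-old means were 0.382 to 1.76%, and 3 of the 5 sites, 71.4 to 71.9 kb from the gene, were called lower in CR-old mice. The means of 2.70, 3.16 and 3.30% came from 3, 6 and 5 AL-old mice with enough reads, and AL-old 27 was not among them. The site of 2.70% was among the 3 called. The mean of 16.6% was 10.6% without AL-old 27. In the runs near BC034090, Cbx8, Cplx2 and Aacs no site was called in either comparison, and their AL-old means were between 0.0165 and 4.13%. Near Cplx2, which encodes a regulator of synaptic vesicle release, the means were 0.0660 to 0.516% in AL-old and 0.385 to 1.78% in CR-old mice. The order of the old groups in raw percent was here the opposite of that near Fat1, without a call. All these means lay below 3%, the share that a count of 0 in 100 reads allows. In adjusted percent the order held except at chr13:54398374-54398379, with 0.627% in AL-old and 0.568% in CR-old mice. The site of 4.13% near Aacs, the gene of acetoacetyl-CoA synthetase, was at 25.6% in AL-old 27 and below 3% in the other AL-old mice. A run of 4 sites over 221 bp near Gm6158 had AL-old means of 15.7 to 23.0% and CR-old means of 1.61 to 4.42% and was not called for diet at any of them. Without AL-old 27 these AL-old means were 4.75 to 16.7%.

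**Figure D4:**
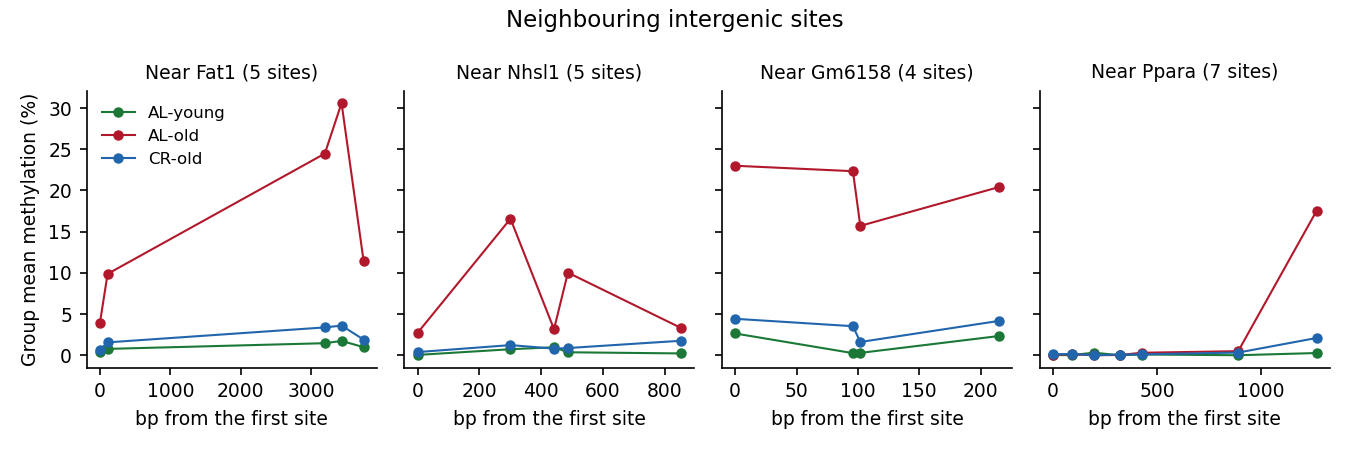
Group means of raw methylation in percent (y axis) at neighbouring sites of 4 runs, against the distance in bp from the first site of the run (x axis), with AL-young in green, AL-old in red and CR-old in blue. Near Ppara 6 sites stayed at or below 0.495% in AL-old mice and the seventh reached 17.5%, whereas all 4 sites near Gm6158 were at 15.7% or more (7.33% and 4.75% or more without AL-old 27).

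Sites far from genes had the higher AL-old levels. The 78 sites over 50 kb from any transcription start averaged 0.895 ± 0.129% in AL-young, 5.82 ± 5.96% in AL-old and 1.28 ± 0.180% in CR-old mice (SD, n = 5, 7 and 5). They lay in 38 runs, and 12 of the 78 were called for diet and 22 for age, out of 18 and 43 such sites. Over the 427 sites 4.22% were called for diet and 10.1% for age. Over all 15742 sites 1.77% were called lower in CR-old and 3.9% higher in AL-old mice. A call required means 2 points apart, which is easier to reach where levels are higher. The 60 sites up to 2 kb away averaged 0.381, 0.899 and 0.403%, and held 0 of the 18 and 3 of the 43. Between them lay 140 sites at 2 to 10 kb, with an AL-old mean of 1.89%, and 149 sites at 10 to 50 kb, with 1.97%. Without AL-old 27 the AL-old means in order of distance were 0.621, 1.39, 1.27 and 3.70%. All 7 AL-old mice were higher at the sites over 10 kb away than at nearer ones, by 1.72 points on average, or 0.943 points without AL-old 27. The same order held in all 5 AL-young and all 5 CR-old mice, with means of 0.688 against 0.543% and 0.897 against 0.690%. Spearman's rho of distance with the AL-old mean over the 427 sites was 0.302, where sites of a run share distance, reads and base composition. The AL-young mean of a site had a rho of 0.778 with its AL-old mean. The part of the level in young mice in the order by distance was not tested.

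**Figure D5:**
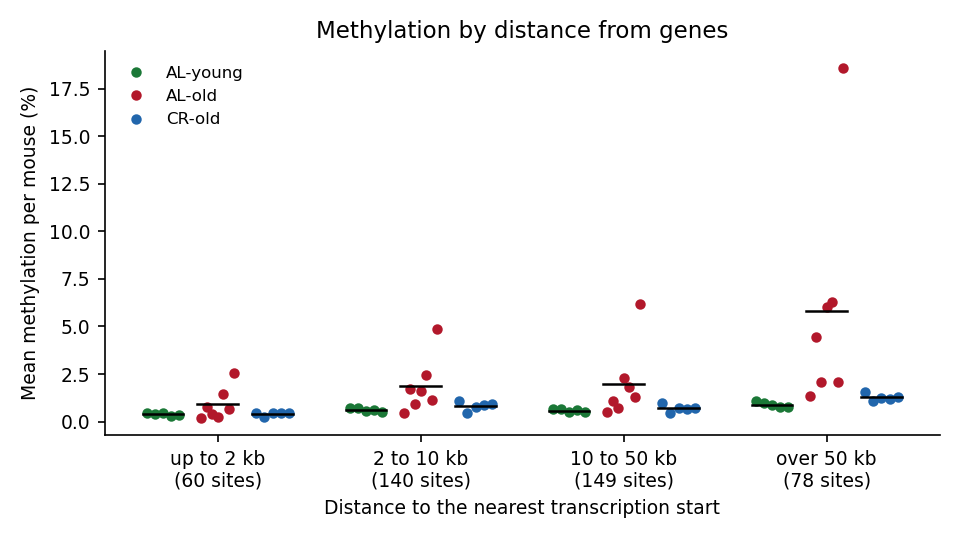
Mean raw methylation in percent per mouse (points, y axis) over the sites in 4 classes of distance to the nearest transcription start (x axis), with black lines for the group means and AL-young in green, AL-old in red and CR-old in blue. AL-old mice averaged 0.899% at the nearest and 5.82% at the farthest sites, where the highest point, 18.6%, is AL-old 27.

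Island length went with a smaller difference. The 213 sites in islands of at least 1000 bp averaged 3.14 ± 2.92% in AL-old mice and the other 214 sites 1.86 ± 1.80% (SD, n = 7), or 2.11 and 1.22% without AL-old 27, whereas the medians over the sites, 0.364 and 0.375%, were alike. Spearman's rho with the AL-old mean was -0.0601 for island length, -0.0931 for CpG ratio and -0.00436 for GC content. By means, the 126 sites with a GC content of 70% or more had 3.42 ± 3.44% in AL-old mice (SD, n = 7). The 223 sites of 60 to 70% had 2.06% and the 78 sites under 60% had 2.21%. Without AL-old 27 these AL-old means were 2.20, 1.32 and 1.75%, and the medians over the sites were 0.330, 0.325 and 0.771%. The position in the island, a feature chosen after the values were seen, gave an AL-old mean of 2.77% at the 225 sites at least 300 bp from an island end, 2.19% at the 187 sites from 100 to under 300 bp and 1.95% at the 13 sites nearer than 100 bp. The last value was 0.642% without AL-old 27. Taken within each AL-old mouse, the difference between long and short islands was 1.27 ± 1.17 points (SD, n = 7), or 0.890 ± 0.624 points without AL-old 27. The differences by position were smaller than the SD among AL-old mice and were not taken within mice.

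The nearest genes numbered 217. Listed families of developmental transcription factors, such as Fox, Pax, Pou and Msx, were nearest to 43 sites, of which 3 (6.98%) were called higher with age and 1 (2.33%), near Nr2f2, lower with CR. The list leaves out developmental factors of other families, among them Sp8, Tbr1, Bsx, Lbx1 and Scrt2, so the site near Sp8 is not in this count. Their means were 1.22 ± 0.147% in AL-young, 4.35 ± 3.19% in AL-old and 1.68 ± 0.478% in CR-old mice (SD, n = 5, 7 and 5), with a median over the sites of 2.70% in AL-old mice. The 357 sites nearest to genes of no list had 0.526, 2.16 and 0.673% and a median of 0.284% in AL-old mice, and 36 (10.1%) were called for age and 15 (4.20%) for diet. Without AL-old 27 the AL-old means of the 2 sets were 3.35 and 1.37%. No test between these sets was made.

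Among the developmental genes, the nearest site of Msx2, a homeobox gene of skull and limb, averaged 1.17% in AL-young, 5.64 ± 6.41% in AL-old and 0.961% in CR-old mice. That of Atoh1, a factor of hair cell and cerebellar development, averaged 0.735, 10.5 ± 21.9 and 1.504%, and AL-old 27 alone had 59.9%. That of Foxc1, a forkhead factor of eye and vessel development, averaged 1.85, 7.82 ± 9.93 and 3.65%. Without AL-old 27 the AL-old means near Msx2, Atoh1 and Foxc1 were 3.59, 2.28 and 4.16%. None of these 3 passed the diet test. The sites nearest to Six2, Pou3f2, Foxo3, Gsx1 and Ebf1, the last a factor of B-cell development, had AL-old means of 0 to 0.513%, and the site near Barx1 had 2.54% in AL-young, 2.70% in AL-old and 4.20% in CR-old mice.

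Genes of signalling families (Bmpr2, Dll4, Fgf12, Sfrp2, Wnt10a and Wnt11) were nearest to 12 sites, with 2 called for age and 1 for diet and an AL-old median over sites of 0.118%. Neuronal channels were nearest to 7 sites, with 1 called in each comparison and a median of 3.13%. Genes of blood and immune cells (Bcl11b, Runx3, Il12rb1 and Il20rb) were nearest to 8 sites, with 1 called for age, 0 for diet by edgeR and a median of 0.897%. The ribosomal protein list had no such site. Over all 427 sites 43 were called for age (10.1%) and 18 for diet (4.22%), and sets of 7 to 12 sites in 4 to 6 runs are too small to be set against these shares.

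At the 5% limit of the choice, the sites just inside were 8.1 kb downstream of Otx1 (AL-young mean 4.84%), 178.3 kb downstream of Efcab1 (4.45%) and 121.6 kb downstream of Melk (4.25%). Their AL-old means were 10.1, 11.3 and 7.30%. Just outside lay sites near Rpl30-ps6 (5.29%), Gm10566 (5.39%) and Rhbg (5.91%), with AL-old means of 6.99, 18.1 and 2.55%.

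Similar sites elsewhere in the genome moved with the intergenic ones. CpG-rich sites unmethylated in young mice numbered 6853 in promoters and 1268 inside genes. Intergenic methylation exceeded that of promoter sites in each of the 17 mice, by 0.317 ± 0.0413 points for AL-young (n = 5), 1.23 ± 1.12 points for AL-old (n = 7) and 0.414 ± 0.107 points for CR-old (n = 5). As a ratio the excess was 2.05 ± 0.110, 2.03 ± 0.333 and 2.07 ± 0.0948 in the same order. Intergenic sites differed less from those inside genes, with ratios of 1.03 ± 0.0389, 1.19 ± 0.164 and 1.05 ± 0.0919. In AL-old mice the difference from sites inside genes was 0.440 ± 0.509 points (n = 7), positive in 7 of 7 mice but as low as 0.000400 points in 1 of them. It was 0.281 points without AL-old 27. Mice ranked nearly alike in the classes, with a Spearman's rho over the 17 mice of 0.971 between intergenic and promoter sites and 0.973 between intergenic sites and sites inside genes, where the classes share library and correction factor.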

How the data were processed

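Whole blood DNA of 17 mice was profiled by DREAM. SmaI, which does not cut a methylated site, was followed by XmaI, which does, so that the fragment ends record methylation. The deposited tables hold counts of methylated and of all reads per site. They also hold percent methylation, raw and adjusted by the authors with spiked standards. The submitters' processing notes name Bowtie2 and SAMtools, with no version in the sources used here. All positions lay on a CCCGGG of NCBIM37 (mm9).

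The main value was the percentage of methylated reads where a site had at least 100 reads. At 5 methylated of 100 reads the 95% Wilson interval runs from 2.15 to 11.2%, and a count of 0 allows up to 3%. Such intervals cover counting error only, since reads carry no molecular identifiers.

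Read counts went into edgeR 4.0.16 (R 4.3.3) and its quasi-likelihood test. The fit used 1 coefficient per mouse, a common dispersion of 0.291 and Benjamini-Hochberg adjustment over 15742 sites. limma 3.58.1 on adjusted log2 odds was an alternative, as were leaving out each mouse, other read minimums and other treatments of the correction factor. The edgeR script was checked on simulated data with the same spread in all groups. AL-old mice spread more than the other groups here, which that check does not cover. Other steps used Python 3.11.15, pandas 2.3.3 and scipy 1.17.1.

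The sites, gene lists and tests were chosen with earlier results of these data known. The sites named were the 6 with the largest AL-old minus AL-young difference and 100 reads in all mice, the 5 with the largest diet difference among those called, at most 1 per 10 kb, the runs with the most sites, those at the 5% limit, those with the most reads and those nearest to 10 developmental genes. Further sites called for diet, and runs tied in size, were added after their values were seen. Libraries of separate mice are the replicates. No 2 mice had equal counts at over 0.318% of sites.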

Additional observations from a re-analysis of the deposited data

Results flagged for a closer look

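In each group the highest and the lowest mouse were compared with the nearest of the others by Dixon's criterion for a mouse far from its group. Of 33 groups of values examined, 5 stood out, where chance gives about 1 in 20 groups. AL-old 27 had the highest mean over the 427 sites in raw percent, 7.53%, and the highest excess of intergenic over promoter sites, 3.57 points. At the site 65.5 kb upstream of Gm6158 it had 88.6%, against 24.5% in the next AL-old mouse. AL-young 15 stood apart at the same site with 1.03%, from 3 methylated of 290 reads. In adjusted percent over the 427 sites AL-young 30, the mouse with the most reads, was the lowest of its group with 0.619%. AL-old 27 had the fewest reads of the series and a correction factor of 0.904, and their part in its high values was not tested.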

How the results depend on the processing

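The 18 sites lower in CR-old than AL-old mice became 44 with the correction factor as an offset, 40 by limma, 8 in low-correction mice alone, 8 with only the compared groups in the fit, 6 with a covariate for high against low correction and 2 at a minimum of 500 reads. A minimum of 20 reads gave 23. Leaving out 1 mouse gave 4 to 34, with the mice named in the report, and 0 to 1 sites higher in CR-old mice (1 without AL-old 25). The 43 sites called higher with age became 89 in low-correction mice alone and 7 at 500 reads, and 37 to 49 without 1 mouse, where 0 to 1 were lower (1 without AL-old 27). With only the compared groups in the fit, CR-old mice differed from AL-young mice at 4 sites upward and 1 downward. The cause of these shifts was not tested, beside fewer sites or mice in the fit where the setting removes them. The difference between intergenic sites and sites inside genes in AL-old mice reversed to -0.354 points at 500 reads.

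Over the 427 sites the diet difference, the age difference and the age difference from the young females not used in the choice kept their sign under each alternative run and without each mouse. No alternative was run for the difference of CR-old from AL-young means or for group differences in the other classes. Without 1 mouse the diet difference ran from -2.01 to -0.859 points and the age difference from 1.04 to 2.19 points. The exact tests at the named sites stayed under 0.05 in adjusted percent. No paired analysis was possible because the groups share no mouse numbers. Below about 3% a single site at 100 reads cannot be told from 0, and AL-old 27 had the fewest reads.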

Other observations

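The most deeply read sites stayed low. A pair of sites 18.1 and 18.2 kb downstream of Zfp382 on chromosome 7 had up to 9489 and 9256 reads in a mouse. Their means were 0.478 and 0.143% in AL-young, 1.56 and 0.288% in AL-old and 0.8999 and 0.244% in CR-old mice. At the first of them AL-old 27 had 7.71% and the other AL-old mice at most 1.02%. A site downstream of Sdc3, which encodes a heparan sulfate proteoglycan, had 0.361, 0.371 and 0.276%, again with the highest value, 1.62%, in AL-old 27.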
